A study of Mus musculus with 10 samples.

Results

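The genes described here encode the intraflagellar transport (IFT) machinery and the BBSome, the protein complexes that carry cargo along the axoneme of cilia and flagella. They were taken by symbol (Ift followed by a number, Bbs followed by a number, or Bbip1), which gave 24 of the 32285 genes listed in the single-cell matrices, 15 with an Ift symbol and 9 with a Bbs or Bbip1 symbol. Of these, 23 are protein-coding: 3 IFT-A subunits (Ift122, Ift140, Ift43), 7 IFT-B core subunits (Ift88, Ift81, Ift74, Ift52, Ift46, Ift27, Ift22), 4 peripheral IFT-B subunits (Ift172, Ift80, Ift57, Ift20), 7 BBSome genes (Bbs1, Bbs2, Bbs4, Bbs5, Bbs7, Bbs9, Bbip1) and 2 chaperonin-like genes that help to assemble the BBSome (Bbs10, Bbs12). The remaining symbol, Ift88os, names an antisense RNA and had 7 UMIs (unique molecular identifiers, 1 per captured transcript) in all named cells. All 23 protein-coding members had counts in both samples and entered the fit of 19552 genes.

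IFT trains move cargo along microtubules between the base and the tip of a growing cilium. IFT-B works with kinesin-2 motors in movement towards the tip, IFT-A works with dynein-2 in the return, and the BBSome is a coat that links membrane proteins to the trains. In the testis the same machinery serves the sperm flagellum, which begins to form in round spermatids and is finished in elongating spermatids.

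The series holds 10 mouse samples. Droplet single-cell RNA sequencing with 3′ v3.1 chemistry was done on 2 whole-testis samples of genotype Smarca5 fl/delta; Ddx4-Cre+ (conditional knockout, cKO), each with an input of 15000 cells. By its label this genotype carries 1 deleted and 1 floxed Smarca5 allele, and Ddx4-Cre, which is active in germ cells, removes the floxed one there. SMARCA5 is the ATPase of ISWI chromatin remodelers. No wild-type testis was profiled in single cells, so no RNA comparison between genotypes is made. Chromatin accessibility (ATAC-seq) was measured in 8 libraries of 50000 sorted cells each, 2 per group: cKIT+ cells of wild type C57BL6 and of cKO, and cells sorted on 4C DNA content with Hoechst, of wild type and of cKO; the submitters call the latter sort pachytene or pachytene-like. Protocol text for both sorts stands on the cKIT+ libraries, whose group was set by the line on library construction, which names cKIT+. A 4C sort also takes replicated cells that are not in pachytene. Ages are not given, and nothing states whether replicates are separate animals. In the single-cell fit the overall difference between the 2 samples is taken out as a block. The p-values rest on how far differences between cell classes vary between these samples, in 1 spread shared by all classes. Whether that is a spread between animals is unknown.

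After filtering, 7413 cells of replicate 1 (median 3678 UMIs) and 12933 cells of replicate 2 (median 4333 UMIs) remained, and the samples shared 27 cell barcodes. Joint clustering gave 24 clusters, which marker lists placed in 5 germ cell classes and 4 somatic classes, while 2 clusters stayed unnamed (694 and 1178 cells). The classes held 51 to 1780 cells in replicate 1 and 113 to 2550 in replicate 2. No cluster was named undifferentiated spermatogonia. The markers of several classes were also counted in other classes, in CPM, the UMIs of a gene or list scaled to a class total of 1000000 UMIs. Elongating spermatid markers summed to 50327 and 42328 in Sertoli cells, against 123547 and 130751 in elongating spermatids, and Leydig markers to 13997 and 29492 CPM in macrophages. Pachytene markers summed to 5883 and 4618 CPM in cluster 12 of the leptotene or zygotene class, against 6740 and 5576 in cluster 3 of the pachytene or diplotene class. Peritubular and stromal cells held pachytene markers at 5098 and 2703 CPM and elongating markers at 16197 and 4492. Differentiating spermatogonium markers summed to 807 and 978 CPM in pachytene or diplotene spermatocytes, against 1338 and 1793 in their own class. Smarca5 itself stood at 319 and 178 CPM in differentiating spermatogonia and 7.49 and 4.23 in round spermatids; a 3′ tag can come from a transcript without the deleted exon, so this checks no label.

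The start sites of the members lay in accessible chromatin in both sorts, and 5 promoters are shown because the results turn on these genes: Ift172 and Bbs5, the members highest in elongating spermatids; Ift57, with the most RFX motif matches; Ift20, highest in Leydig cells; and Bbs1, the member without a start-site peak in 1 library. Each run covers 250 bases before to 50 bases after the annotated start, 5′ to 3′ on the gene's strand, from RefSeq on GRCm38.p6, the assembly of mm10. They lie at chr5:31291065-31291364 (minus strand) for Ift172, chr2:69646921-69647220 (plus) for Bbs5, chr16:49699044-49699343 (plus) for Ift57, chr11:78536111-78536410 (plus) for Ift20 and chr19:4906578-4906877 (minus) for Bbs1. Capitals mark matches to the RFX motifs GTTGCC and GTTACC, the cyclic AMP response element TGACGTCA or the CCAAT box, on either strand.
Ift172: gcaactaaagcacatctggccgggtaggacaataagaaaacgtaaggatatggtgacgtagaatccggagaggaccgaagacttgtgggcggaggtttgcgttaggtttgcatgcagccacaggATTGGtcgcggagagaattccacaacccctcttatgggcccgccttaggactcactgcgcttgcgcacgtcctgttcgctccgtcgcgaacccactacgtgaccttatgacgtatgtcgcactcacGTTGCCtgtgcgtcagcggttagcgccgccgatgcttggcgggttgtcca
Bbs5: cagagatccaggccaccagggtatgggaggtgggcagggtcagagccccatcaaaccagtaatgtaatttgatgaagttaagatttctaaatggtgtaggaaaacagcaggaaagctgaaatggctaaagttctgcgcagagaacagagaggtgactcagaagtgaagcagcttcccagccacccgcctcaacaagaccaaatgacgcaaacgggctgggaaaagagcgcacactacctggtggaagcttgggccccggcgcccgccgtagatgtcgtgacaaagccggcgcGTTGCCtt
Ift57: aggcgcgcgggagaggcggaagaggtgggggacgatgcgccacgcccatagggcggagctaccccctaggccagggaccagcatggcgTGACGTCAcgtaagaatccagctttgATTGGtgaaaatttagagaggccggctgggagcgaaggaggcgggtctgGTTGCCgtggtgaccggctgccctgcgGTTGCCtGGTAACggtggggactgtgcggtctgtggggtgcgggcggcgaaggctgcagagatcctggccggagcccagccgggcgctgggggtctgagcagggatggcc
Ift20: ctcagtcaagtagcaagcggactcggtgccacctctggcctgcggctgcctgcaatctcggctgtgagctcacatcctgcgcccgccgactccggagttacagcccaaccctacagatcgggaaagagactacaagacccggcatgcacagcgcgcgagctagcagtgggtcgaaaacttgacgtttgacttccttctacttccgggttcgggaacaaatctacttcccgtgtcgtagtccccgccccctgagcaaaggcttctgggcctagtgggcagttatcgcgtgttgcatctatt
Bbs1: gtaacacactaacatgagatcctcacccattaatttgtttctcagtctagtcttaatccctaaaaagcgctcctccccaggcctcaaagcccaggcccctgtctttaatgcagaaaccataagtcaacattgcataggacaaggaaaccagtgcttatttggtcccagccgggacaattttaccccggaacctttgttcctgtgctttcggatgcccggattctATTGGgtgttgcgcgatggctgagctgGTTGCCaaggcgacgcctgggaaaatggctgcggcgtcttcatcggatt

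RFX factors are transcription factors that bind paired short motifs in the promoters of many ciliary genes. A promoter entry was matched for 20 of the 23 protein-coding members (all but Ift80, Ift81 and Ift122). GTTGCC was present in 8 of these 20 promoters (40.0%) and in 12.7% of all 27025 promoters of the same length. The 8 genes were Ift172, Ift57, Ift88, Ift27, Ift140, Bbs1, Bbs5 and Bbs7. GTTACC was found in 2 member promoters (10.0%, against 7.17% of all), those of Bbs10 and Ift57. In Ift172 the GTTGCC match began at the annotated start itself (position 1), in Bbs1 at position 2, and in Bbs5 at position 43 downstream. Ift57 was the only member with more than 1 RFX match and the only one with TGACGTCA. Its RFX matches began at −87, −60 and −53, the last on the opposite strand, and TGACGTCA began at −162. Promoters with at least 2 RFX matches made up 2.35% of all promoters, and those with TGACGTCA 1.88%. The CCAAT box was present in 12 of 20 member promoters (against 37.9% of all promoters). No motif searched was found in the Ift20 window. Member promoters had a median GC content of 58.0%, against 52.7% over all promoters. No matches of different motifs overlapped in the windows shown, and a match is a description of the sequence, not a binding site.

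Together the members were most abundant in spermatocytes. Their UMIs were summed over the cells of each class and sample and scaled to the total UMIs of that class. Differentiating spermatogonia had 1129 CPM in replicate 1 and 1312 in replicate 2, and leptotene or zygotene spermatocytes had 3113 and 2828. The summed level was 3127 and 3071 CPM in pachytene or diplotene spermatocytes, 2355 and 2405 in round spermatids and 1465 and 1494 in elongating spermatids. Among germ cells both samples thus lay lowest in spermatogonia and highest in spermatocytes, and the ranges of neighbouring classes overlapped only between the 2 spermatocyte classes. Among somatic classes the sum was 1872 and 1703 CPM for Sertoli cells, 1329 and 1308 for Leydig cells, 1196 and 1035 for macrophages and 2620 and 2111 for peritubular and stromal cells. Barcodes of replicate 1 with 10 to 100 UMIs, which hold free RNA, had 2488 CPM. Only the spermatocyte classes in both samples and peritubular cells of replicate 1 lie above that level. How much of any class's level came from free RNA was not tested.

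**Figure D1:**
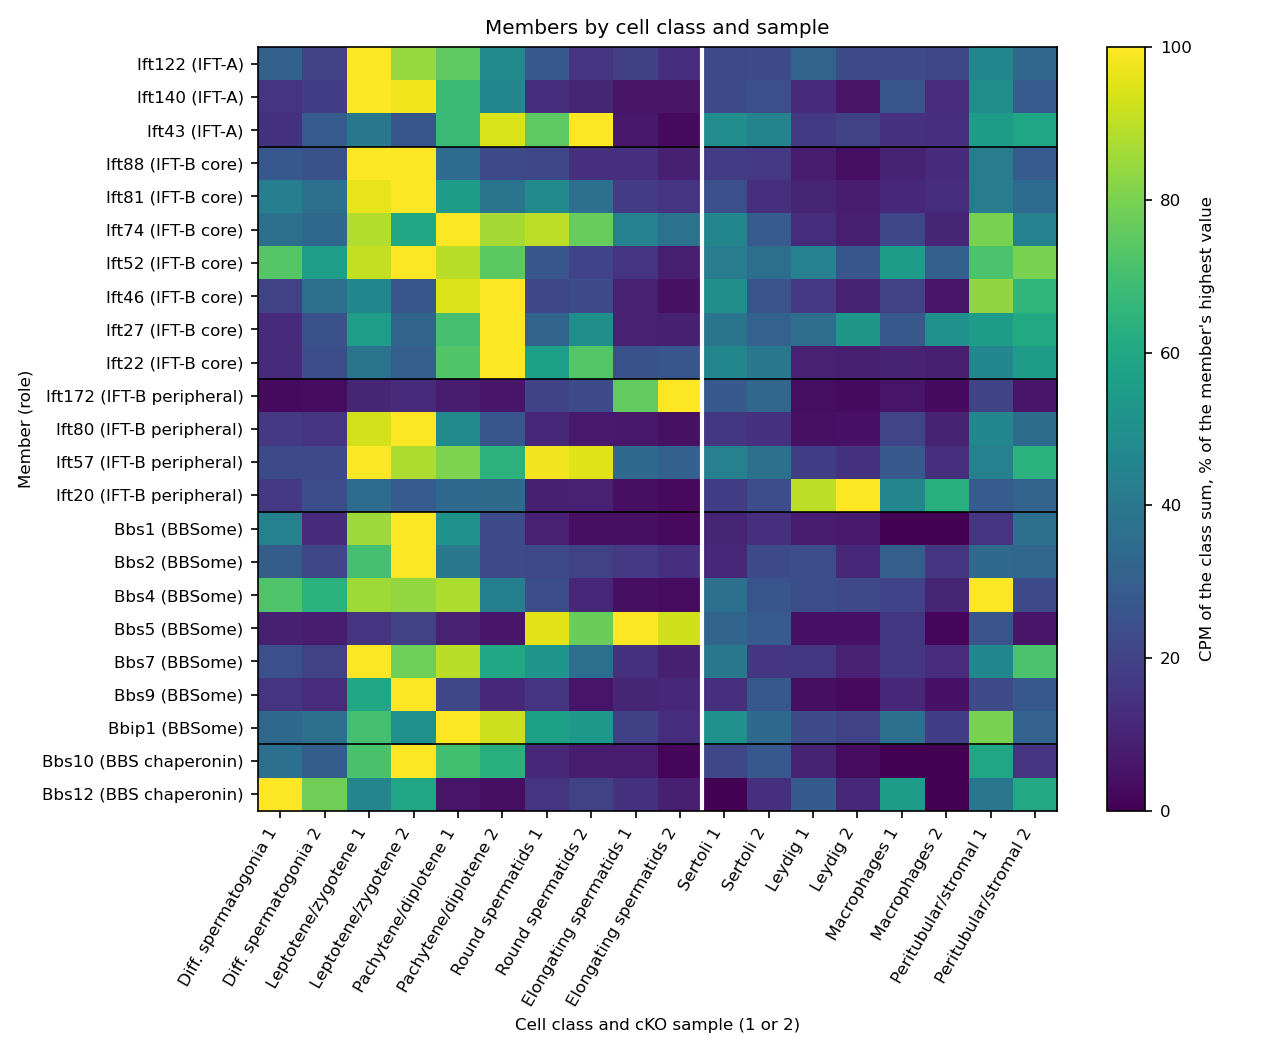
Level of each protein-coding member (rows, grouped by role) in each cell class and sample (columns), as CPM of the class sum in percent of that member's highest value. Of the 23 members, 21 were highest in the same class in both samples, 11 of them in leptotene or zygotene spermatocytes and 5 in pachytene or diplotene spermatocytes.

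The class with the highest level was the same in both samples for 21 of the 23 members. It was leptotene or zygotene spermatocytes for 11: Ift88, Ift81, Ift52, Ift80, Ift122, Ift140, Bbs1, Bbs2, Bbs7, Bbs9 and Bbs10. Pachytene or diplotene spermatocytes were highest for 5, the IFT-B core subunits Ift74, Ift46, Ift27 and Ift22 and the small BBSome subunit gene Bbip1. Elongating spermatids were highest for Ift172 and Bbs5, round spermatids for Ift43, Leydig cells for Ift20 and differentiating spermatogonia for Bbs12. Bbs4 and Ift57 peaked in different classes in the 2 samples. For Bbs5, Bbs7, Ift74, Ift22 and Ift43 the values of the highest and the second class overlapped, so the order of these classes is not settled. The second class was round spermatids for Bbs5, Ift74 and Ift22, and pachytene or diplotene spermatocytes for Ift43 and Bbs7. The fit described below called neither Bbs5 nor Ift43 different between its 2 highest classes. Between genes, UMI levels also reflect how well each 3′ end is captured, so levels are compared only within a gene.

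The mean level over the 5 germ cell classes was compared with that over the 4 somatic classes in the edgeR quasi-likelihood fit, with the sample as a block and p-values adjusted over all genes by Benjamini-Hochberg. By the genotype, germ cells lose the floxed Smarca5 allele and somatic cells keep it. Cell type and loss of Smarca5 therefore cannot be told apart in this contrast. Of the 23 members, 17 were called higher in germ cells, against 32.2% of all genes, and 1 was called lower, against 22.8%. The median log2 fold change was 0.79 over members and 0.43 over all genes. The largest rises with UMIs in every class were those of Ift74 and Ift81, which together bind tubulin within IFT-B: Ift74 was 1.66 ± 0.19 (SE) higher on the log2 scale (adjusted p = 1.0e-11) and Ift81 1.63 ± 0.20 (adjusted p = 6.2e-11). Bbs5, a membrane-binding BBSome subunit, was 1.45 ± 0.23 higher (adjusted p = 1.85e-07), and Ift88 was 1.27 ± 0.19 higher (adjusted p = 3.4e-08).

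Several of these calls rested on few counts or on the choice of cells. Bbs1 and Bbs10 had 0 UMIs in macrophages of both samples, which allows up to 10.0 CPM in replicate 1 and 5.25 CPM in replicate 2, so their fitted folds are no bound; without them the median of the members was 0.76. With cells called doublets kept, a setting in which peritubular cells drop out, 7 members were called higher, and Ift172 and Ift140 stood at −0.0212 and −0.0288. Against Leydig cells and macrophages alone, the somatic classes with the lowest elongating spermatid markers, 18 members were called higher and 1 lower, with a median of 1.38. In that setting 7528 of 20201 genes were called higher and the median of all genes was 0.70, so the members' median lay 0.68 above it, instead of 0.36. Ift46 (0.48 ± 0.20, adjusted p = 0.038) lost its call under 7 other settings with a test and stood at −0.0574 without replicate 2.

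Ift20 was the member called lower in germ cells. Its product is known to act at the Golgi complex as well as in IFT-B. Leydig cells had 674 CPM in replicate 1 and 748 in replicate 2, and macrophages had 341 and 473. The germ cell classes ranged from 31.3 and 19.9 CPM in elongating spermatids to 261 and 218 in leptotene or zygotene and 256 and 259 in pachytene or diplotene spermatocytes. Every Leydig value lay above every other class of the same sample, and the germ cell mean was lower by 1.20 on the log2 scale (−1.20 ± 0.18, adjusted p = 3.7e-08). Ift20 made up 50.7% and 57.2% of all member UMIs in Leydig cells. In Sertoli cells it held at most 11.4% and 14.4% of member UMIs, the shares of the second-ranked member. With member sums of 1872 and 1703 CPM there, that lies below the pachytene or diplotene level in both samples. In peritubular and stromal cells of replicate 2 its share was 11.2%. Thus not every somatic class lay above every germ cell class. The 2 macrophage clusters differed: in cluster 22 Ift20 stood at 637 and 723 CPM, and in cluster 19 at 58.7 and 111. Leydig markers in macrophages are given above, and their part in this value was not tested.

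**Figure D2:**
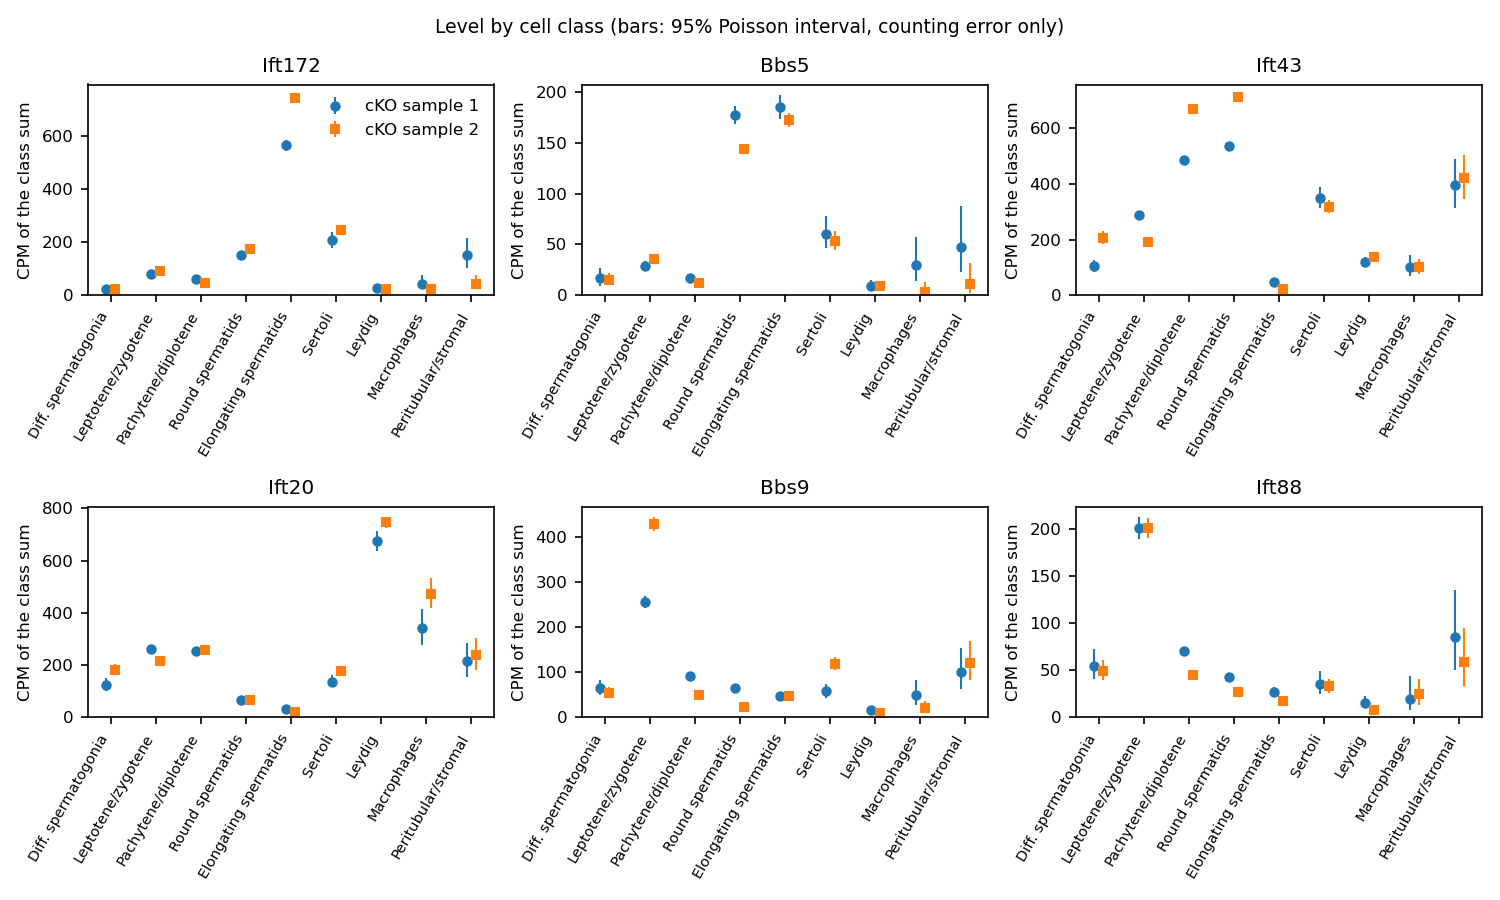
CPM of the class sum for Ift172, Bbs5, Ift43, Ift20, Bbs9 and Ift88 in each of the 9 cell classes, 1 point per cKO sample, with exact Poisson 95% intervals that cover counting error only. Ift172 reaches 566 and 745 CPM in elongating spermatids, where Ift43 stands at 48.8 and 22.2, and Ift20 is highest in Leydig cells at 674 and 748.

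From differentiating spermatogonia to leptotene or zygotene spermatocytes nearly the whole set rose. Of 23 members, 20 were called higher, against 20.4% of all genes, and 0 were called lower, against 14.2%. The median log2 fold change was 1.79 over members and 0.25 over all genes. All 3 IFT-A genes, all 4 peripheral IFT-B genes, 6 of 7 IFT-B core genes and 6 of 7 BBSome genes passed the test. Only Ift46 (0.67 ± 0.38, adjusted p = 0.18), Bbs4 (0.75 ± 0.41, adjusted p = 0.16) and Bbs12 (−0.30 ± 0.54, adjusted p = 0.72) did not.

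Ift80, a peripheral IFT-B subunit, had 24.1 and 22.5 CPM in spermatogonia and 135 and 144 in leptotene or zygotene spermatocytes. The samples of the 2 classes did not overlap, and the rise was 3.02 ± 0.39 on the log2 scale (adjusted p = 2.2e-09). Ift140, an IFT-A core subunit, went from 25.2 and 29.6 to 164 and 160 CPM, a rise of 2.97 ± 0.38 (adjusted p = 1.7e-09). Bbs9, a BBSome core subunit, went from 64.7 and 54.4 to 255 and 429 CPM, a rise of 2.97 ± 0.40 (adjusted p = 8.9e-09). In each of these 3 genes every leptotene or zygotene value lay above every spermatogonial value.

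Ift88 (chr14:57424064-57517936, mm10), whose product is required for ciliogenesis, had 54.9 and 49.7 CPM in spermatogonia and 201 in both samples of leptotene or zygotene spermatocytes (2.39 ± 0.35, adjusted p = 9.7e-08). Ift57 rose by 2.52 ± 0.37 (adjusted p = 8.5e-08), from 29.6 and 29.0 CPM to 131 and 115. Bbs7, which pairs with BBS2 in the BBSome, went from 19.8 and 16.0 to 81.6 and 63.5 CPM (2.46 ± 0.39, adjusted p = 6.5e-07). Calls that ended under another setting were those of Ift52 and Ift20 (4 settings each), Bbip1 and Ift43 (3 each) and Bbs5 (1). Log2 gene length and fold change had a Spearman rho of 0.53 over the 23 members and 0.08 over 18087 genes with a length, as a description; the part of length in the rise was not tested.

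The summed level also differed between the clusters inside the leptotene or zygotene class. Cluster 13, led by Stra8, Dmc1 and Tex15 among others, had 1403 CPM in replicate 1 and 1443 in replicate 2, against 1129 and 1312 in spermatogonia. Cluster 11, led by Rad51ap2, Meiob and Sycp3, had 2296 and 2234, and clusters 12 and 4 had 3388 and 3269 and 3496 and 3553. In cluster 13, differentiating spermatogonium markers summed to 1332 and 1982 CPM and pachytene markers to 1053 and 870, while in cluster 12 the same sums were 160 and 216 and 5883 and 4618. In replicate 2 the members' level did not follow the pachytene markers over all 5 clusters of the class. There cluster 11 had 2776 CPM of these markers, cluster 4 had 2613 with 3553 CPM of the members, and cluster 21 had 2027 with 2929. In replicate 1 the markers stood at 1053, 2479, 3440 and 5301 CPM in clusters 13, 21, 11 and 4. The members stood in that order at 1403, 2276, 2296 and 3496 CPM. Cluster 21 of replicate 1 held 24 cells with 54048 UMIs in all, so its 2276 CPM cannot be told apart from the 2296 of cluster 11. Cluster 12 of replicate 1 had 5883 CPM of the markers with 3388 of the members. Cluster 4 was named from 3 raised markers of 10, with 0 among its leading genes.

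**Figure D3:**
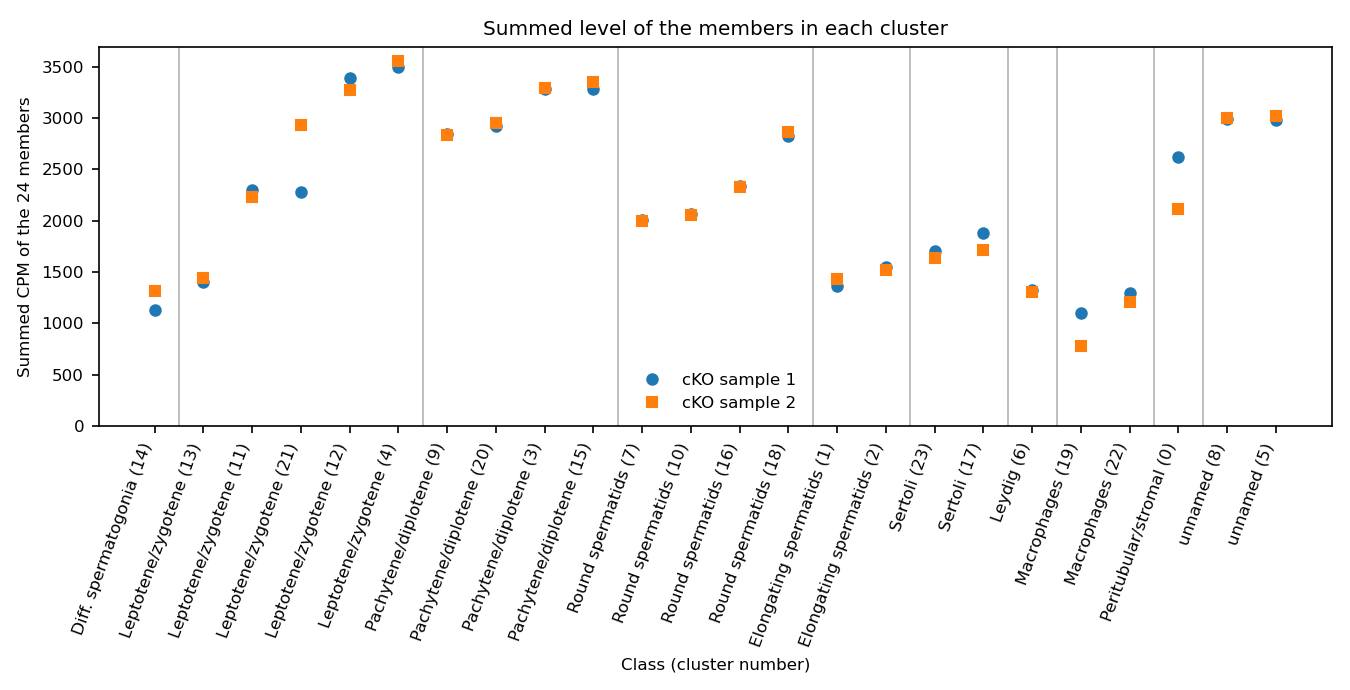
Summed CPM of the 24 members in each of the 24 clusters (horizontal axis, grouped by class and ordered by level within it), 1 point per cKO sample. Within the leptotene or zygotene class the values run from 1403 and 1443 in cluster 13 to 3496 and 3553 in cluster 4.

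Within the leptotene or zygotene class Bbs9 was low in clusters 13 and 11 and high in clusters 4 and 21. It spans 412725 bases (chr9:22475559-22888283, mm10), the longest of the members. It had 67.2 and 40.8 CPM in cluster 13, 144 and 124 in cluster 11, 404 and 857 in cluster 4 and 426 and 665 in cluster 21. Median depth was 8199 and 2545 UMIs per cell in cluster 4 and 1858 and 1468.5 in cluster 21, and the leading genes included Otud7a and Pde3b in cluster 4 and Tafa1 and Zfpm2 in cluster 21. Other clusters with high Bbs9 were the round spermatid cluster 7 (655 and 377 CPM), the unnamed cluster 5 (712 and 857) and the Sertoli cluster 23 (579 and 510). Cluster 4 held 131 cells of replicate 1 and 802 of replicate 2. Cluster 21 held 24 and 228 cells and cluster 23 held 13 and 102, so their replicate 1 values rest on few cells. With only clusters of at least 5 raised markers, which leaves out clusters 4, 7 and 15, Bbs9 rose by 2.22 and Ift140 by 1.99 on the log2 scale. Whether reads from introns were counted is not given in the sources used here, and the part of depth and gene length in these values was not tested.

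From leptotene or zygotene to pachytene or diplotene spermatocytes 5 of 23 members were called higher, against 18.6% of all genes, and 6 lower, against 29.6%. Both shares of the members (21.7% and 26.1%) lie near that background, so the counts say nothing particular about the set. The median was −0.02 over members and −0.45 over all genes. It was 0.03 with DESeq2 and −0.47 when scaled by totals only. Under these 3 scalings it lay 0.42 to 0.43 above that of all genes, a difference that scaling alone can hardly move. With cells of at least 2000 UMIs it lay 0.28 above, without replicate 1 0.38 and without replicate 2 0.15. Higher were 3 IFT-B core genes, 1 IFT-A gene and 1 BBSome gene; lower were 3 BBSome genes, 1 IFT-B core gene, 1 peripheral IFT-B gene and Bbs12.

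Ift46, which docks outer dynein arms as IFT cargo, had 102 and 57.5 CPM in leptotene or zygotene spermatocytes and 210 and 222 in pachytene or diplotene spermatocytes (1.92 ± 0.37, adjusted p = 1.6e-05). Ift22 and Ift27 encode small GTPase-like subunits. Ift22 rose from 142 and 111 to 269 and 369 CPM (1.72 ± 0.36, adjusted p = 6.8e-05) and Ift27 from 87.8 and 50.4 to 110 and 156 CPM (1.28 ± 0.37, adjusted p = 0.0028). Ift43, an IFT-A subunit, rose from 289 and 189 to 487 and 671 CPM (1.67 ± 0.40, adjusted p = 0.00033). In these 4 genes the samples of the 2 classes did not overlap.

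Among the genes that fell, Ift88 went from 201 in both samples to 70.5 and 45.4 CPM (−1.40 ± 0.33, adjusted p = 0.00027). Bbs9 went to 90.7 and 49.7 CPM (−1.88 ± 0.37, adjusted p = 2.2e-05). Bbs12, a chaperonin-like gene with few counts, went from 5.47 and 7.15 to 0.673 and 0.496 CPM (−2.99 ± 0.54, adjusted p = 4.7e-06). Each of the 3 was lower in both samples of the later class. Bbs1 (−0.999 ± 0.39, adjusted p = 0.029) lost its call under 5 of the settings tried. Without the filter on low counts 7 members were called higher and 3 lower, with a median of 0.31. All genes moved with that setting too, from 5791 of 19552 called lower to 4023 of 28757.

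**Figure D4:**
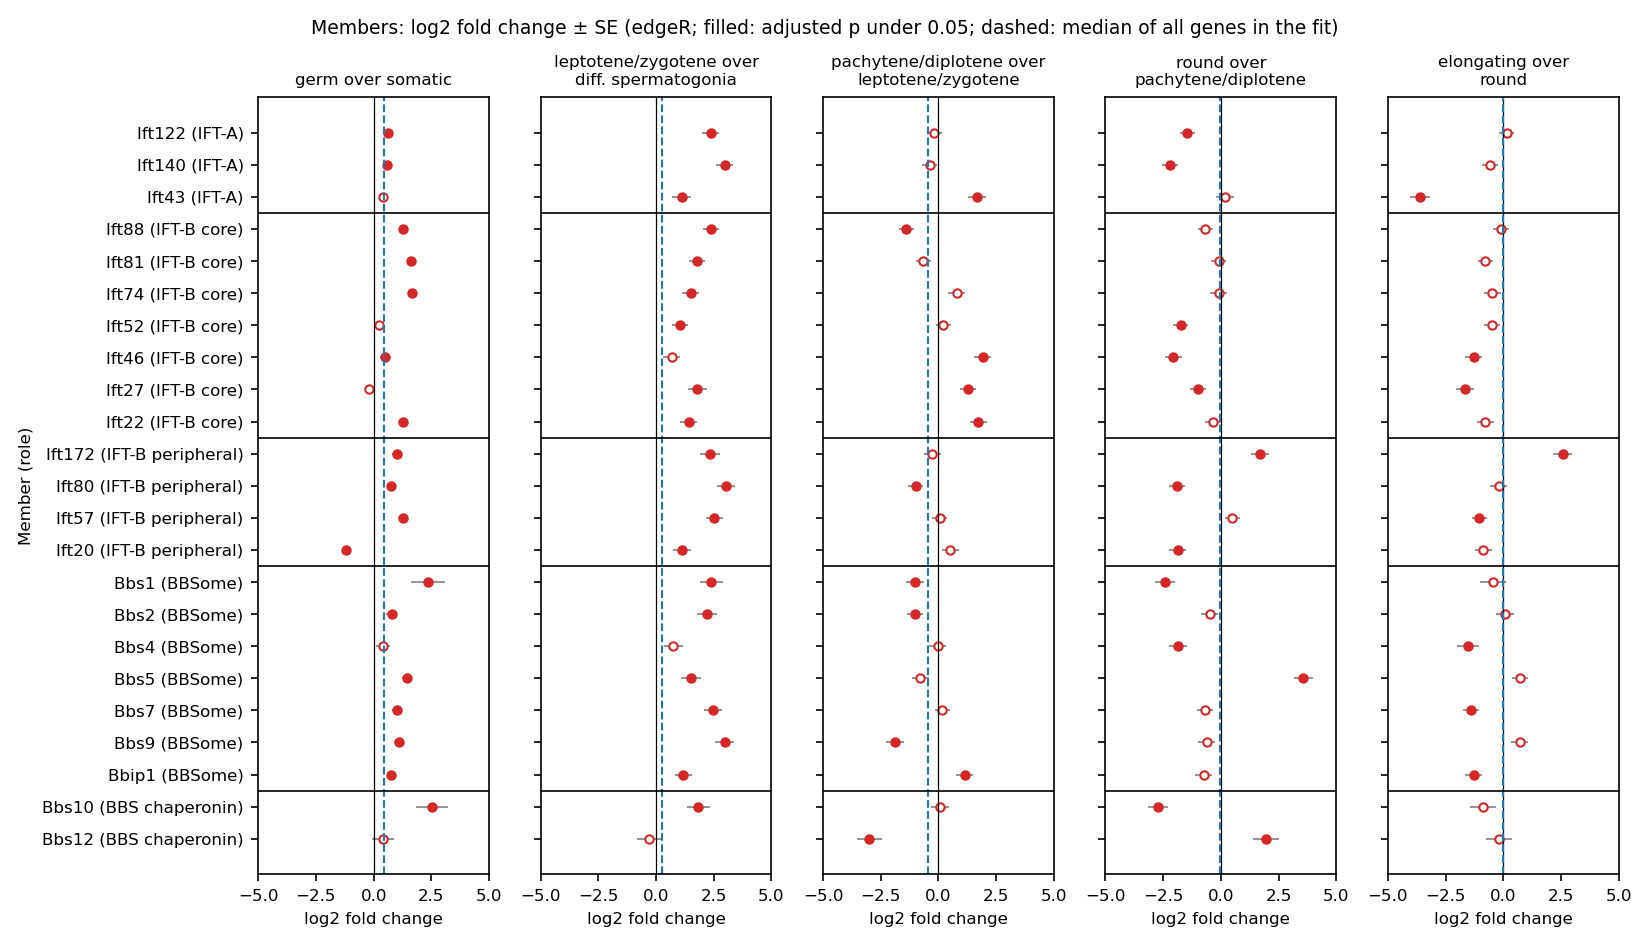
Log2 fold change ± SE of each member (rows, grouped by role) in the 5 contrasts (panels) from edgeR, with filled points for adjusted p under 0.05 and a dashed line at the median of all genes in the fit. In the leptotene or zygotene over differentiating spermatogonia panel 20 of 23 points are filled to the right of 0; in the elongating over round panel 7 are filled to the left and Ift172, at 2.57, to the right.

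Round spermatids, in which the flagellum begins to grow, had lower levels of many members than pachytene or diplotene spermatocytes. Of 23, 3 were called higher, against 32.6% of all genes, and 10 lower, against 29.3%. The median was −0.69 over members and −0.06 over all genes. The 3 that rose were Bbs5, Ift172 and Bbs12. Bbs5 had 17.0 and 11.5 CPM in pachytene or diplotene spermatocytes and 178 and 144 in round spermatids, with no overlap (3.58 ± 0.39, adjusted p = 1.4e-12). Ift172, the largest peripheral IFT-B subunit, went from 60.1 and 45.4 to 153 and 173 CPM (1.71 ± 0.39, adjusted p = 9.2e-05). Bbs12 stayed at a low level, with 1.81 and 2.34 CPM in round spermatids (1.96 ± 0.54, adjusted p = 0.0013).

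The largest falls were those of Bbs10 and Bbs1. Bbs10 went from 16.8 and 15.2 to 2.66 and 1.97 CPM (−2.73 ± 0.43, adjusted p = 7.0e-08) and Bbs1 from 15.4 and 6.85 to 2.78 and 1.26 CPM (−2.41 ± 0.44, adjusted p = 1.8e-06). Ift140 went from 112 and 75.7 to 21.3 and 17.0 CPM (−2.21 ± 0.34, adjusted p = 5.1e-08). The other members that fell were Ift46, Ift80, Ift20, Bbs4, Ift52, Ift122 and Ift27, with log2 fold changes of −2.07 (Ift46) to −0.998 (Ift27). Ift27 lost its call under 3 settings, and the other 12 calls of this contrast held under every setting with a test. The BBSome genes thus split: Bbs5 rose, Bbs1 and Bbs4 fell, and Bbs2, Bbs7, Bbs9 and Bbip1 did not pass the test, with folds of −0.74 to −0.49.

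From round to elongating spermatids Ift172 rose and Ift43 fell. Of 23 members, 1 was called higher, against 15.2% of all genes, and 7 lower, against 15.3%; the median was −0.56 over members and 0.01 over all genes. Ift172 rose from 153 and 173 to 566 and 745 CPM (2.57 ± 0.40, adjusted p = 2.9e-07), and it made up 38.6% and 49.9% of the member UMIs of elongating spermatids. Ift43 (chr12:86082561-86162459, mm10) fell from 535 and 712 to 48.8 and 22.2 CPM (−3.63 ± 0.43, adjusted p = 3.2e-10). Neither gene's samples overlapped between the classes.

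Bbs5 stood at 186 and 173 CPM in elongating spermatids (0.72 ± 0.35, adjusted p = 0.12). Ift27 (−1.65), Bbs4 (−1.51), Bbs7 (−1.40), Ift46 (−1.29), Bbip1 (−1.28) and Ift57 (−1.03) were the other members that fell. Bbs4 and Ift46 lost the call with DESeq2, and Ift46 and Ift57 with clusters made per sample. A second gene was called higher under 5 settings, Bbs5 with DESeq2 or with doublets kept and Bbs9 under the other 3. Scaled by totals only, 13 members were called lower.

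Within the spermatid classes, clusters were compared by their elongating spermatid markers, not by time. These markers summed to 3524 and 1852 CPM in round spermatid cluster 18, 8729 and 6299 in cluster 16 and 32441 and 31563 in cluster 10, and to 97738 and 113856 in elongating cluster 2 and 154222 and 173290 in cluster 1. Ift172 stood in that order at 28.9 and 14.0, 87.7 and 103, 322 and 418, 516 and 678 and 626 and 914 CPM. Over these 5 clusters, in both samples, each one with more elongating markers had more Ift172.

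Ift43 followed the opposite order from cluster 18 to cluster 2, at 749 and 951, 636 and 800, 344 and 399 and 34.3 and 15.0 CPM, and stood at 66.0 and 40.2 in cluster 1. Bbs5 had 71.1 and 46.3 CPM in cluster 18, 182 and 143 in cluster 16, 256 and 240 in cluster 10, 240 and 209 in cluster 2 and 121 and 81.3 in cluster 1. Bbs5 was thus highest in cluster 10 and Ift172 in cluster 1, in both samples. Cluster 7, with median depths of 1416 and 1574.5 UMIs per cell, lay outside this order, with 60.3 and 66.9 CPM of Ift172 and elongating markers at 11095 and 12182 CPM. These differences between clusters of 1 class are descriptions with no test.

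Sertoli cells had 207 and 245 CPM of Ift172, second to elongating spermatids. In Sertoli cluster 17, where elongating markers summed to 53261 and 48179 CPM, Ift172 stood at 214 and 278, and in Sertoli cluster 23, with 5887 and 7907 CPM of those markers, at 99.2 and 54.2. Cluster 17 held 267 and 390 cells, and cluster 23 held 13 and 102. In replicate 1 cluster 23 had 60472 UMIs in all, so its Ift172 value rests on few counts. Free RNA of replicate 1 had 173 CPM of Ift172 and 29713 CPM of elongating markers. The share of spermatid RNA in the Sertoli value was not tested.

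The 30 other genes of the pathway, from a list of IFT, BBSome, motor, adaptor and ciliary transcription factor genes, were all in the fit. In germ over somatic classes 23 were called higher and 1 lower (median 0.99), against 32.2% and 22.8% of all genes, and in leptotene or zygotene over differentiating spermatogonia 22 higher and 1 lower (median 1.65), against 20.4% and 14.2%. The dynein-2 and IFT-A genes all rose in the latter contrast, 5 of 5 and 3 of 3. Among them, Dync2li1, a dynein-2 light intermediate chain, rose from 13.2 and 13.0 to 102 and 83.0 CPM (3.24 ± 0.42, adjusted p = 2.3e-09). Ttc26, an IFT-B subunit, rose by 3.13 ± 0.43 (adjusted p = 1.7e-08) and Wdr19, an IFT-A subunit, by 2.87 ± 0.44 (adjusted p = 2.7e-07).

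In pachytene or diplotene over leptotene or zygotene spermatocytes 3 of the 30 were called higher and 6 lower (median −0.26), both smaller shares than the 18.6% and 29.6% of all genes. Rfx3, a ciliary transcription factor, fell by 2.64 on the log2 scale (−2.64 ± 0.38, adjusted p = 2.3e-08). In round over pachytene or diplotene cells 6 were called higher and 13 lower (median −0.62), against 32.6% and 29.3% of all genes. The kinesin-2 motor gene Kif17 rose from 2.56 and 1.26 to 48.0 and 27.2 CPM (4.38 ± 0.40, adjusted p = 1.3e-15). Foxj1, a master regulator of motile ciliogenesis, rose from 2.83 and 2.42 to 29.6 and 26.5 CPM (3.48 ± 0.42, adjusted p = 3.2e-11). Both rose in the contrast in which Bbs5 and Ift172 rose and 10 members fell.

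In elongating over round spermatids 1 of the 30 was called higher and 14 lower (median −0.94), against 15.2% and 15.3% of all genes. The one higher was Wdr19, named here after its values were seen, with 19.0 and 11.4 CPM in round and 47.8 and 44.2 in elongating spermatids (2.21 ± 0.36, adjusted p = 7.2e-07). Among those that fell were Arl6, the GTPase that recruits the BBSome to membranes (−2.80 ± 0.37, adjusted p = 8.9e-09), and Lztfl1, a regulator of BBSome entry into cilia (−2.70 ± 0.38, adjusted p = 3.6e-08).

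All of these contrasts depend in part on how the classes are scaled to each other, because the classes differ in RNA content. Of all genes called, the share called higher was 58.5% in germ over somatic, 59.0% into leptotene or zygotene, 38.6% into pachytene or diplotene, 52.6% into round and 49.9% into elongating cells. With DESeq2 it was 49.4%, 38.4%, 41.9%, 64.7% and 71.5%, and scaled by totals only 43.2%, 38.8%, 24.98%, 51.1% and 24.8%. In the same order the members' median less that of all genes was 0.36, 1.54, 0.43, −0.63 and −0.57, with DESeq2 0.55, 1.58, 0.43, −0.63 and −0.56, and scaled by totals only 0.33, 1.48, 0.42, −0.64 and −0.59. Set against all genes, the members' median kept its direction in all 5 contrasts under these 3 scalings. A change of scaling shifts the folds of all genes in a contrast by about the same amount. The difference can therefore hardly move, and its staying the same is no test of the scaling.

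Chromatin at the members was open in both sorts and both genotypes. A gene was counted as having a peak when a peak of a library's list lay within 5 kb of its annotated span, and 26660 listed genes had a position. All 23 protein-coding members had such a peak in all 8 libraries, against 63.6% of all genes. Within 1 kb of the start, 22 of 23 had a peak in all 8 libraries, against 47.8% of all genes. For a gene without a promoter entry, a peak near either end of its span was counted as a start peak. Among the members this holds for Ift80, Ift81 and Ift122, whose start peaks may thus lie at the other end. The exception was Bbs1, whose start had no peak in replicate 2 of the cKIT+ wild-type cells.

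No member passed any rule that compares the groups by presence of a peak within 5 kb. In cKIT+ cells 0 members had a peak in the wild-type pair of libraries alone, against 0.203% of all genes, and 0 in the cKO pair alone, against 1.35%. In 4C-sorted cells the counts were 0 for wild type only, against 0.878%, and 0 for cKO only, against 1.17%. Between sorts, 0 members had a peak in all 4C-sorted and no cKIT+ library, against 0.623%, and 0 in all cKIT+ and no 4C-sorted library, against 1.25%. With 23 members and shares of this size, these zeros lie near the background. The lists give peaks called per library and no read counts, so a change in the height of a peak present in every library cannot be measured here.

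The peak at the start stood high within each library's own list. The authors' fold enrichment is a ratio over the library's own local background, and it is used here to rank peaks within a list; where it is printed for single peaks it describes them and is not compared between libraries. Among genes with a start peak, the median member ranked above 82.1% and 86.4% of genes in cKIT+ wild type, 86.3% and 82.8% in cKIT+ cKO, 83.9% and 75.2% in 4C-sorted wild type and 79.3% and 83.7% in 4C-sorted cKO. Between 19 and 20 members lay above the median of all genes in each library. Bbs9 ranked above 96.1% to 99.7% of genes, and Ift57 above 97.0% to 99.1%.

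The 3 members lowest in the ranking, by their median over libraries, were Bbs1 (3.74% to 32.8% where it had a peak), Ift80 (16.4% to 38.7%) and Ift43 (2.87% to 53.2%). Ift80 has no promoter entry, so its ranked peak may lie at either end of the gene. The Bbs1 start peak had a fold enrichment of 3.18 in cKIT+ wild-type replicate 1 and none in replicate 2, 3.43 and 3.34 in cKIT+ cKO, 4.36 and 4.73 in 4C-sorted wild type and 4.14 and 4.39 in 4C-sorted cKO. Ift172, highest in spermatids by RNA, had a start peak in all 8 libraries (5.27 and 8.82, 9.01 and 9.47, 8.07 and 7.91, 6.38 and 6.55 in that order), as did Ift20 (7.70 and 8.20, 10.0 and 9.83, 7.32 and 6.61, 6.21 and 6.38).

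**Figure D5:**
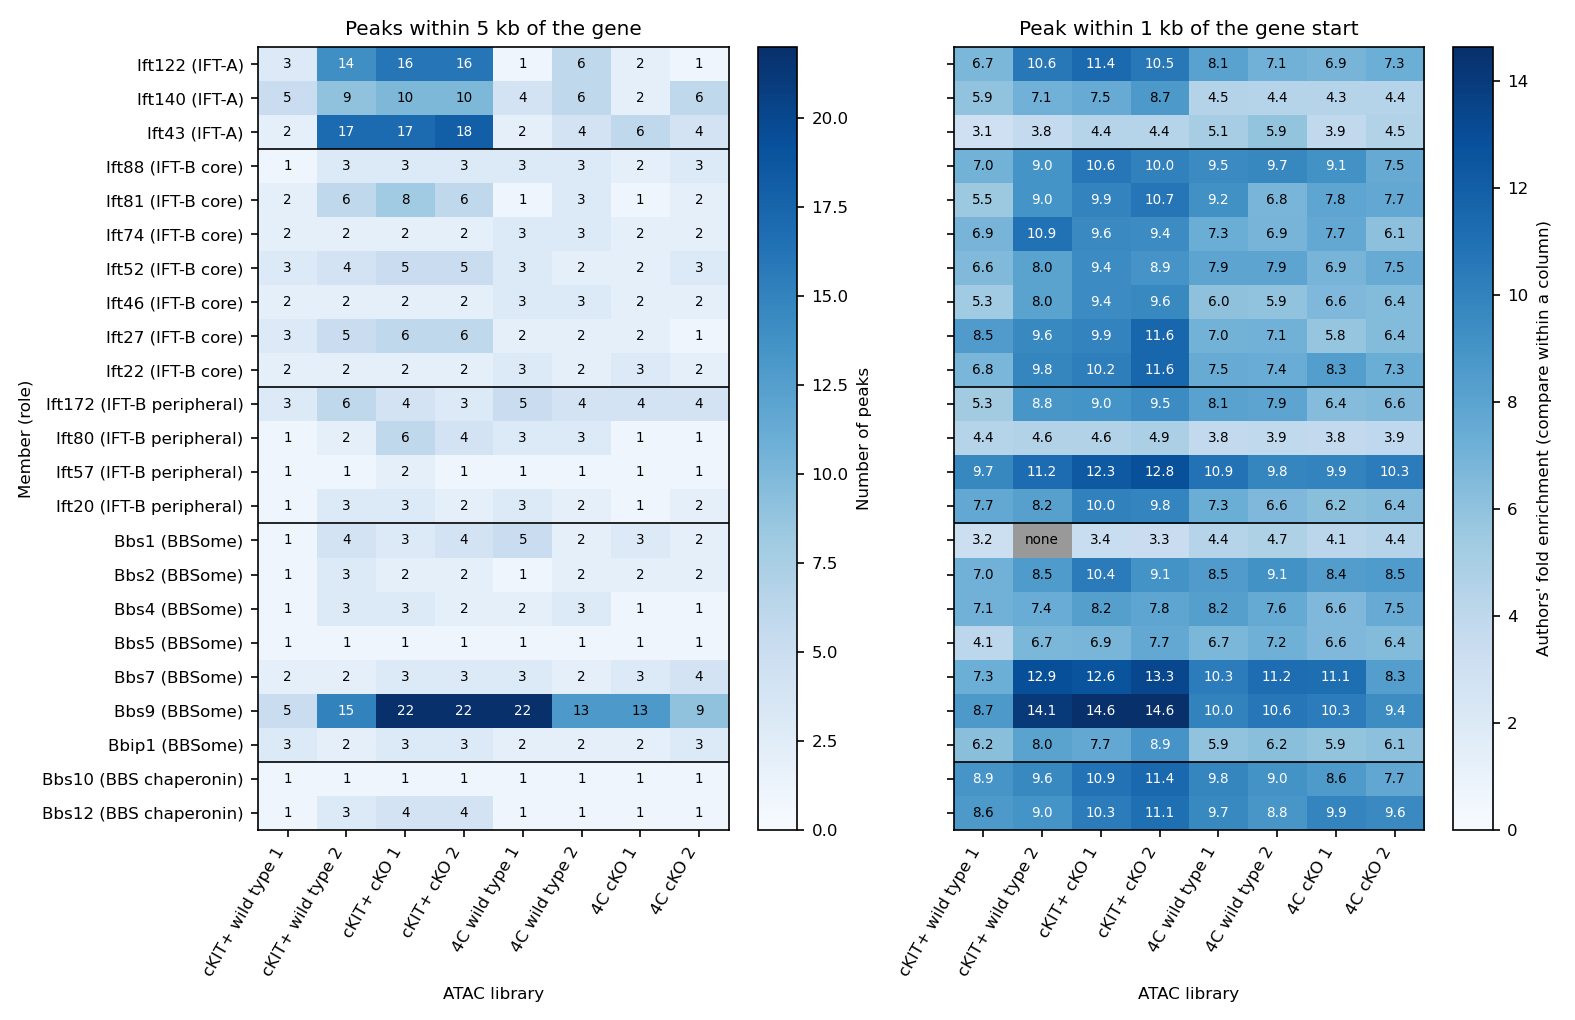
Number of peaks within 5 kb of each member (left) and the authors' fold enrichment of its peak within 1 kb of the start (right, to be compared within a column), by ATAC library. For Ift80, Ift81 and Ift122 either end of the gene was counted as the start. Every member has a peak in every column on the left, from 1 in all libraries at Bbs10 and Bbs5 to as many as 22 at Bbs9, and Bbs1 has none at its start in cKIT+ wild-type replicate 2.

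Within the cKIT+ libraries, longer lists held more peaks around the members, and within the 4C-sorted libraries they did not. The members' windows held 47 and 110 peaks in cKIT+ wild type, 128 and 122 in cKIT+ cKO, 75 and 71 in 4C-sorted wild type and 58 and 58 in 4C-sorted cKO. The lists themselves held 44697 and 112518, 127222 and 121802, 55756 and 59417, and 54059 and 57788 peaks in the same order, so cKIT+ wild-type replicate 1 stands apart with a short list. The 4C-sorted lists are of similar length, and the wild-type ones hold more peaks around the members than the cKO ones, a description with no test. Peaks were not counted in this way around all genes, so whether this is particular to the members is unknown. Of all genes, 19720 and 19938 had a peak within 5 kb in 4C-sorted wild type, and 20011 and 20191 in 4C-sorted cKO. Bbs9 had 5 and 15 peaks in cKIT+ wild type, 22 and 22 in cKIT+ cKO, 22 and 13 in 4C-sorted wild type and 13 and 9 in 4C-sorted cKO. Ift43 had 2 and 17, 17 and 18, 2 and 4, and 6 and 4. Ift122 had 3 and 14, 16 and 16, 1 and 6, and 2 and 1. In Ift43 and Ift122, 3 of 4 cKIT+ lists thus held more peaks than any 4C-sorted list.

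Peaks of the 8 libraries that overlapped were merged, which gave 238 regions in the members' windows of 146757 near all genes. Of these, 27 regions (11.3%) were present in all 8 libraries, against 10.6% of all regions, and 95 (39.9%) in 1 library, against 35.5%. For 19 of the 20 members with a promoter entry, the region in all 8 libraries held the start itself. This was not counted over all genes, of which 47.8% had a peak within 1 kb of the start in all 8 libraries. The region at the Ift172 start was chr5:31290417-31291585 and that at the Bbs5 start chr2:69646742-69647585. Bbs9 had 60 regions, all within the gene, and Bbs5 and Bbs10 had 1 each.

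Regions that separated the genotypes were as frequent around the members as around all genes or nearly so. In cKIT+ cells 0 of 238 regions were found in the wild-type pair of libraries alone, against 0.513%, and 15 (6.303%) in the cKO pair alone, against 6.27%. In 4C-sorted cells 4 (1.68%) were in wild type only, against 1.43%, and 3 (1.26%) in cKO only, against 1.99%. The 15 cKIT+ cKO regions lay around 7 members, Bbip1, Bbs7, Bbs9, Ift122, Ift27, Ift43 and Ift80, and wild-type replicate 1 has the short list named above.

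Regions that separated the sorts were few. In all 4C-sorted and no cKIT+ library there were 2 (0.840%), against 1.58% of all regions. One lay 4378 bases upstream of the Ift172 start (chr5:31295492-31296003), with wild-type folds of 2.69 and 3.15 and cKO folds of 3.01 and 2.56; Nrbp1, Krtcap3 and Fndc4 also lie within 5 kb of Ift172, so the region cannot be assigned to 1 gene. The other lay within Ift88 (chr14:57472776-57473680), 48705 bases from its start, with wild-type folds of 4.57 and 3.96 and cKO folds of 4.01 and 4.30. In all cKIT+ and no 4C-sorted library there were 4 regions (1.68%), against 2.68%. They were 1 outside Ift81 (chr5:122617167-122617364), 1 within Bbs9 (chr9:22592336-22592539) and 2 at Ift27 (chr15:78156835-78157142 and, within the gene, chr15:78171536-78171809).

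Some members share their span with other genes, which bears on UMIs and peaks alike. Bbip1 overlaps Pdcd4 by 7937 bases, Ift140 overlaps Tmem204 by 23413, and Ift74 overlaps Lrrc19 by 14424. Bbs9 overlaps Gm39309 by 13965 bases, and Ift57 overlaps Gm15518 by 5424 and Gm52251 by 3983. Overlaps at Ift80, Ift81 and Ift122 were shorter, at most 739 bases. Whether counting used strand is not given in the sources used here, so the values of all these members are uncertain to that extent.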

How the data were processed

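The deposited UMI counts per gene and barcode come from Cell Ranger, version 7.1.0 for replicate 1 and version 9.0.1 for replicate 2, per the file headers; the submitters' processing notes name mm10 and Seurat 4.1.0 without its role. For ATAC-seq the submitters' processing notes list cutadapt, Bowtie2, MACS2 and mm10, and the authors called peaks per library. The deposited lists hold, for every peak, the authors' own score, fold enrichment, −log10 p and −log10 q, and the depth of these libraries is unknown.

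Total UMIs were 63605819 and 115830234. Cells with at least 1000 UMIs, 500 genes and at most 10% mitochondrial UMIs were kept (8098 and 14262), and doublets called by Scrublet in scanpy 1.11.5 (685 and 1329) were removed. Counts scaled to 10000 per cell, 2000 variable genes without the members, 30 principal components and 15 neighbours gave joint Leiden clusters (resolution 1, seed 1). A cluster took the class that alone had most markers among its 10 leading genes, if these were more than 1. Otherwise it took the class whose markers had the highest mean log2 fold over the other cells. In either case it needed at least 3 raised markers of that class. UMIs were summed per class and sample where both samples had 50 cells or more. Filtered counts (filterByExpr, TMM) entered the quasi-likelihood fit of edgeR 4.0.16 (R 4.3.3) with the sample as a block, because classes of 1 sample come from the same suspension; tests are two-sided, adjusted by Benjamini-Hochberg, at 0.05. DESeq2 1.42.0 was an alternative. On simulated counts for the germ-over-somatic contrast (18170 genes), 83 of 95 genes changed 4-fold and 51 of 93 changed 2-fold were recovered, with 12 false calls (8.22% of those made). In the simulation all other genes had the same mean level in every class, and the samples did not differ. In the data 6300 genes were called higher and 4466 lower of 19552, so these rates do not describe the fit to the data. Poisson intervals and the level a count of 0 allows (3 counts) cover counting error only.

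Every member by symbol could be named, and of the other pathway genes at most the 6 with the largest fold among those called in a contrast. The members and lists were chosen with earlier results of these data known. Alternatives on clustering per sample, 5 raised markers, the somatic classes used and scaling by totals only were added after the data had been seen. Gene positions and promoters are RefSeq's on GRCm38.p6, matched by symbol for 26660 genes; Ift88os had no position.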

Additional observations from a re-analysis of the deposited data

Results flagged for a closer look

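Both unnamed clusters, which enter no comparison above, held the members at the level of spermatocytes. The members summed to 2980 CPM in replicate 1 and 3023 in replicate 2 in cluster 5, and to 2988 and 3003 in cluster 8, above the free RNA of replicate 1 at 2488. Cluster 5 (148 and 656 cells) was led by Gm41335, Magi2 and Npas3 and had 712 and 857 CPM of Bbs9. Cluster 8 (546 and 522 cells) was led by 4933436I20Rik, Cnbd1 and Agbl1, had 38.6 and 24.9 CPM of Bbs9 and 637 and 862 of Ift43, and held pachytene markers at 4439 and 4122 CPM and round spermatid markers at 2380 and 2302.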

How the results depend on the processing

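Of 70 called member folds, 46 kept their direction and side of the threshold under every alternative with a test: 7 of 18 in germ over somatic, 15 of 20 into leptotene or zygotene, 7 of 11 into pachytene or diplotene, 12 of 13 into round and 5 of 8 into elongating cells. In germ over somatic, members called higher numbered 7 with doublets kept (all genes 2535 instead of 6300), where Ift172 stood at −0.0212 and Ift140 at −0.0288; scaled by totals only, 2 were called lower, Ift20 and Ift27. Without the filter on low counts 3 were called lower into pachytene or diplotene. Into elongating cells 2 were called higher with DESeq2, doublets kept, cells with at least 2000 UMIs, clusters per sample or at least 5 raised markers, and 13 were called lower when scaled by totals only. Of all genes, those called higher in germ over somatic numbered 4123 when scaled by totals only and 4104 with cells of at least 2000 UMIs, and those called lower 6825 with doublets kept instead of 4466. Into leptotene or zygotene 2398 (DESeq2) and 2324 (totals only) were called higher instead of 3988. Into elongating cells 1726 (totals only) were called higher instead of 2974, and 1674 (DESeq2), 1857 (clusters per sample) and 5247 (totals only) lower instead of 2991. The causes were not tested.

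Leaving out a replicate gives values without a test. The members' median then ran, without replicate 1 and 2, from 0.72 to 1.45 (germ over somatic), 1.68 to 1.69, −0.18 to 0.28, −0.90 to −0.63 and −0.54 to −0.48, and Ift46 in germ over somatic stood at 1.27 without replicate 1 and −0.0574 without replicate 2. With no replicate block the paired fit's counts became 16 higher and 1 lower, 18 and 0, 5 and 5, 3 and 9, and 1 and 7. No paired analysis was possible for the ATAC rules because they compare presence only; their counts of members stayed at 0 under all alternatives tried, including without each library in turn. Precision is limited by 2 samples per class and by few counts in Bbs12, Bbs10 and Bbs1.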
